A study of Sus scrofa with 64 samples.

Results

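Cell junction genes were followed through 16 tissues of the pig. They are the genes whose symbol on the array begins with CLDN, CDH, PCDH, GJA, GJB, GJC, TJP, CTNN, DSG, DSC or PKP, together with OCLN and DSP. The rule used names only and no measured value. It found 53 probes of 33 genes among the 23935 probes that measure pig transcripts, of which 10069 carry 1 gene symbol (6765 genes). There were 8 cadherins (13 probes), 9 claudins (10 probes), 5 connexins (6 probes), 2 protocadherins (6 probes), the desmosome genes DSP and PKP4 (3 probes), the tight junction genes OCLN and TJP1 (4 probes) and 5 genes named CTNN (11 probes). Of these 5, CTNNB1 and CTNND1 encode catenins that bind cadherin tails and CTNNAL1 a relative of alpha-catenin. CTNNBIP1, an inhibitor of beta-catenin in the nucleus, and CTNNBL1, a nuclear protein that binds splicing factors, match by name and are not parts of junctions. CDH2, CLDN1, CLDN18, GJB2, DSG2 and PKP2 were not analysed here.

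Cells of an epithelium are held together by several kinds of contact. Tight junctions, built from claudins and occludin on a scaffold of zonula occludens proteins, close the space between cells, and the claudins in use decide which ions pass. Adherens junctions join cells through cadherins, which bind each other outside the cell and catenins inside it. Desmosomes tie keratin filaments of neighbouring cells together through desmoplakin and plakophilins, and gap junctions are channels of connexins that link the cytoplasm of adjoining cells. Endothelium, glia and muscle use members of the same families.

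Messenger RNA levels came from 64 Affymetrix porcine arrays, 1 for each tissue of each of 4 pigs. The animals were a Large White (LW) male of 38.80 kg and a Large White female of 36.20 kg, both 87 days old, and an Iberian (IB) male of 25.4 kg and an Iberian female of 32.8 kg, both 89 days old. No animal was treated, each tissue thus has 4 arrays from 4 animals, and each breed and each sex is 2 animals. Values are log2 levels, where 1 unit is a doubling of the signal. They ran from 1.78 to 14.47 with a median of 5.47, and array medians lay between 5.38 and 5.52. A level can be set against the same probe on another array but not against another probe. The number of arrays limits the precision.

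Tissue labels were set against marker lists, each given as the mean of its genes. The lists for liver, thyroid gland, stomach, ileum, muscle, fat and blood were highest in their own tissues. Both adrenal samples held cortex, with 12.42 in cortex and 12.33 in medulla for the adrenal cortex list, and PNMT, the enzyme that makes adrenaline, was at 9.44 in cortex and 11.35 in medulla. The list of 5 pituitary hormone and lineage genes was at 12.20 in adenohypophysis and still at 9.74 in neurohypophysis, whose 4 arrays ran from 8.12 to 10.52. The pineal array of the LW male stood apart. SAG, a photoreceptor and pineal gene, was at 5.09 there against 8.08 to 10.36 in the other 3 pineal glands. The myelin and glia list was at 9.80 there against 6.45 to 6.94. In the stomach of the IB female the gastric list was at 12.17 against 12.89 to 13.11 in the other 3 stomachs, and the enterocyte list at 4.57 against 3.40 to 4.03. The Biceps femoris array of the IB female stood apart for CDH11, at 4.90 against 6.60 to 6.70. Calls lost without these arrays are given beside the results they touch.

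Junction genes varied strongly between tissues. Of the 53 probes, 47 differed among tissues (limma F test, adjusted p under 0.05 and tissue means at least 1 unit apart), beside 83.2% of all probes. Their tissue means spanned 2.0 units at the median against 1.74 over all probes, and 15 of them (28.3%) spanned 4 units or more, against 12.8%. The spread among the 4 arrays of a tissue was 0.30 (median SD), against 0.25 over all probes. The probes not called were those of CDH6 and CTNND1, the dimmer probe of DSP and the 3 of PCDH11X. By the brightest probe, the range of tissue means in the heat map was widest for CLDN11 (8.92), GJA1 (8.53), CDH1 (7.48), DSP (6.41), CDH17 (6.20) and CDH5 (6.16).

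**Figure D1:**
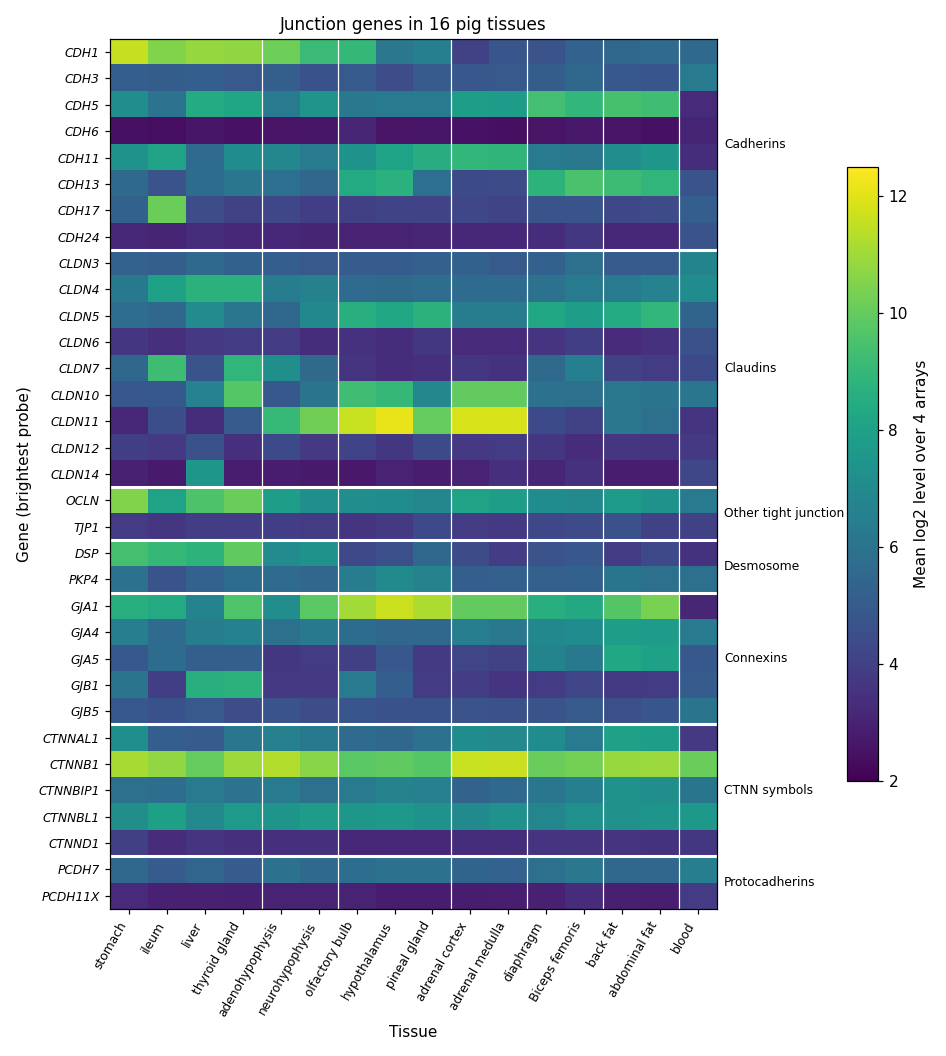
Mean log2 level over 4 arrays of the brightest probe of each of the 33 genes (rows, by family) in the 16 tissues (columns), with colours to be compared within a row only. CDH1 was bright in stomach, ileum, liver, thyroid gland and adenohypophysis, CLDN11 in the brain tissues and both adrenal samples, and GJA1 was at 3.13 in blood against 6.69 or more elsewhere.

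The first comparison set the organs whose working cells are epithelium (stomach, ileum, liver and thyroid gland) against the other 12 tissues. CDH1, DSP, GJB1, CLDN7, OCLN, CLDN4 and CDH17 were higher there by their brightest probes, and CLDN11, CDH13 and CLDN5 were lower. Of the 53 probes, 10 were called higher, beside 4.86% of all probes, and 3 lower, beside 4.30%. A call needed an adjusted p under 0.05 over all probes and a difference of at least 1 unit. All tissue comparisons below draw on the same 64 arrays and are not independent of each other.

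CDH1, the E-cadherin of epithelial adherens junctions, had levels of 10.13, 10.82 and 11.91 (lowest, median and highest) in the 16 arrays of the epithelial organs. Over the 48 other arrays they were 3.69, 5.84 and 10.53. The groups overlapped only through the adenohypophysis, whose 4 arrays were at 9.96 to 10.53. CDH1 was higher by 4.52 (SE 0.12, adjusted p = 1.2e-35) in the epithelial organs. In a sample of whole tissue, fewer cells of a type and less RNA per cell cannot be told apart, here and in every comparison that follows.

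Along the tissues CDH1 was at 11.58 ± 0.35 in stomach (SD, n = 4), 10.85 ± 0.21 in liver, 10.75 ± 0.07 in thyroid gland and 10.50 ± 0.29 in ileum. The 4 stomach arrays lay above every other array, whereas liver, thyroid gland and ileum overlapped. Outside these organs it was at 10.20 ± 0.27 in adenohypophysis, 9.15 ± 0.30 in neurohypophysis and 8.98 ± 0.55 in olfactory bulb. The olfactory bulb arrays (8.36 to 9.46) lay above those of pineal gland (6.35 to 6.75) and hypothalamus (5.59 to 6.52), and the adrenal cortex was lowest at 4.09 ± 0.39. The olfactory bulb held the epithelium list of 10 marker genes at 4.28, against 4.37 in hypothalamus and 4.40 in pineal gland.

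DSP, the desmoplakin that anchors keratin to desmosomes, was the member whose groups did not overlap. Levels were 8.43, 9.31 and 10.24 in the epithelial organs (lowest, median and highest), against 2.96, 4.72 and 7.48 in the other tissues. The difference was 4.41 (SE 0.136, adjusted p = 6.7e-33). The 4 thyroid arrays, at 9.70 to 10.24, were above all others, and both hypophyses (6.79 to 7.48) lay between the epithelial organs and the remaining tissues. A second, dimmer DSP probe did not follow it (r = 0.08 over the 16 tissue means).

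OCLN, the occludin of tight junctions, was at 7.41, 9.79 and 10.77 in the epithelial organs, against 5.82, 7.22 and 8.39 elsewhere. It was higher by 2.25 (adjusted p = 2.8e-30), and by 2.31 with another of its probes. The overlap came from ileum, at 8.04 ± 0.46, which lay among the other tissues, with adrenal cortex at 8.04 ± 0.30. Stomach was at 10.51 ± 0.29, thyroid gland at 10.10 ± 0.19 and liver at 9.55 ± 0.12.

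**Figure D2:**
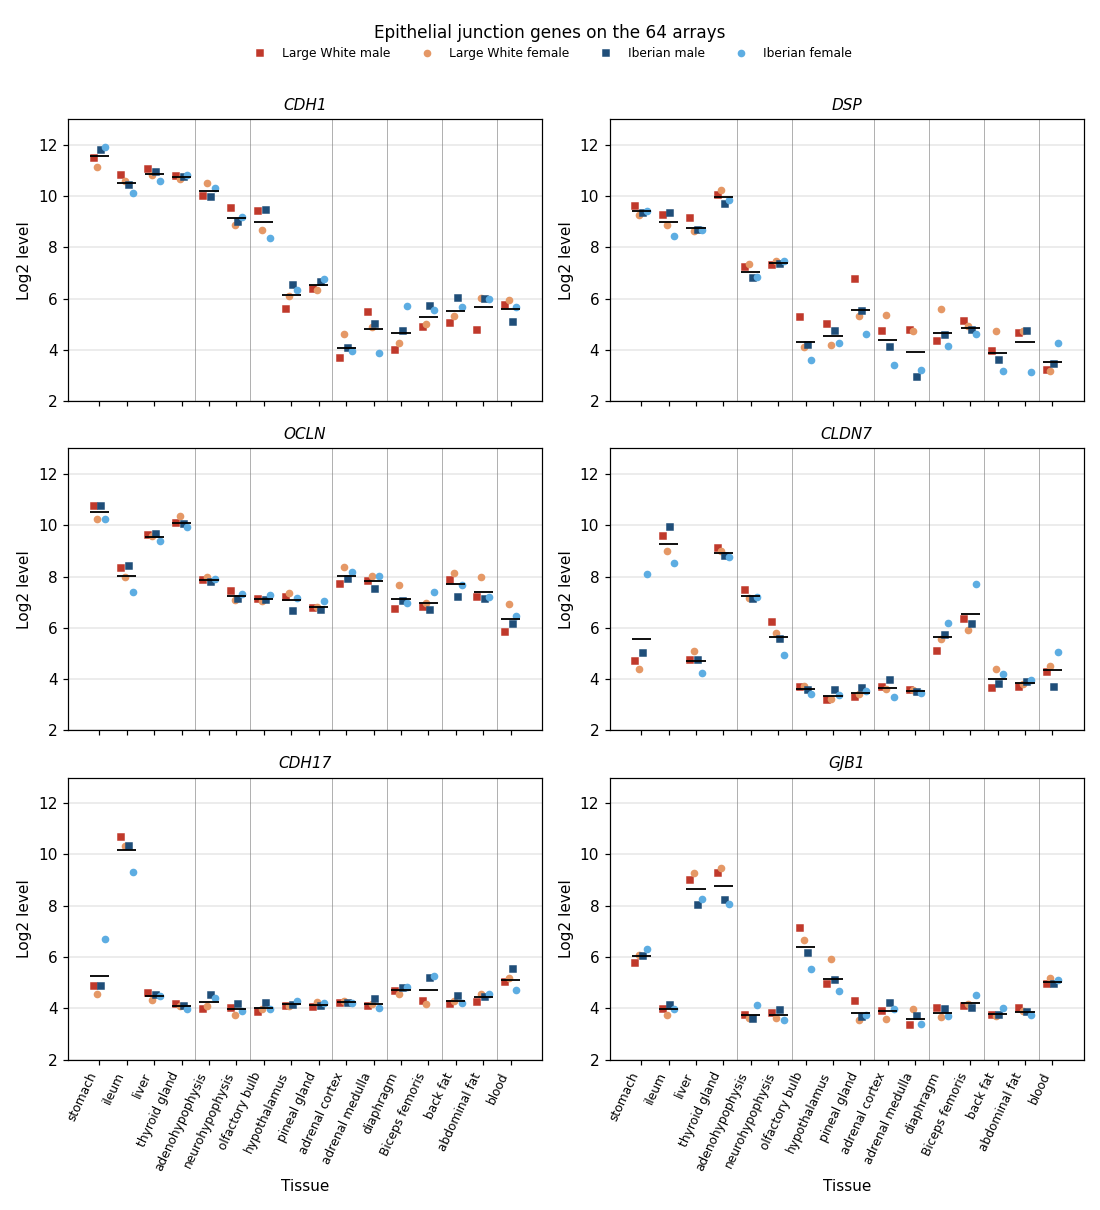
Log2 level of CDH1, DSP, OCLN, CLDN7, CDH17 and GJB1 (brightest probe) on each of the 64 arrays by tissue, with red and orange for Large White, dark and light blue for Iberian, squares for males, circles for females and a black line for the mean of 4 arrays. DSP separated stomach, ileum, liver and thyroid gland (8.43 to 10.24) from every other array, whereas CLDN7 and GJB1 were high in some of them only.

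Other members rose through some of these organs only. CLDN7, a claudin of the lateral membrane of epithelial cells, was higher by 2.54 (SE 0.160, adjusted p = 7.0e-20), with ileum at 9.25 ± 0.61 and thyroid gland at 8.92 ± 0.16. Liver was at 4.71 ± 0.35, below the adenohypophysis at 7.24 ± 0.16. GJB1, the connexin of hepatocytes, was higher by 2.60 (SE 0.102, adjusted p = 1.6e-28), with thyroid gland at 8.76 ± 0.71 and liver at 8.64 ± 0.60 and ileum at 3.96 ± 0.16, within the range of the tissues where it was lowest. CLDN4, a barrier-forming claudin, was higher by 1.76 (adjusted p = 3.9e-18), with liver at 8.73 ± 0.67, thyroid gland at 8.70 ± 0.12, ileum at 7.99 ± 0.40 and stomach at 6.24 ± 0.36. CDH17, the cadherin named for liver and intestine in other mammals, was higher by 1.64 (adjusted p = 7.0e-21), with ileum at 10.16 ± 0.60. Stomach followed at 5.25, and liver at 4.47 ± 0.12 and thyroid gland at 4.07 ± 0.07 lay within the range of the other tissues.

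The members lower in the epithelial organs are known from glia, muscle and vessels. CLDN11, the claudin of myelin and of Sertoli cells, was at 2.87, 3.94 and 5.35 in them and at 3.22, 9.39 and 12.24 elsewhere, lower by 4.38 (SE 0.157, adjusted p = 3.6e-30). CDH13, a cadherin bound to the membrane by a lipid anchor and a receptor of adiponectin, fell by 1.47 (SE 0.176, adjusted p = 2.8e-10). CLDN5, the claudin of endothelium and of the blood-brain barrier, fell by 1.37 (SE 0.108, adjusted p = 3.5e-16). All 3 overlapped between the groups.

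**Figure D3:**
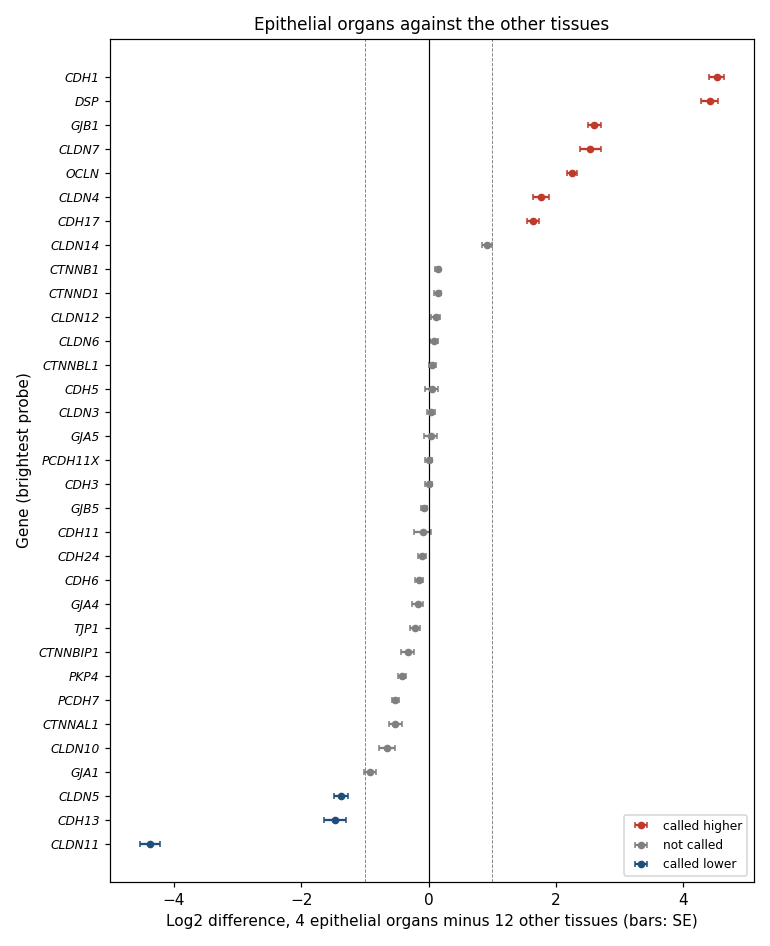
Log2 difference between the 4 epithelial organs and the 12 other tissues (x axis, bars are standard errors) for the brightest probe of each of the 33 genes, with red for genes called higher, blue for genes called lower and dashed lines at 1 unit. CDH1 (4.52) and DSP (4.41) lay farthest to the right and CLDN11 (-4.38) farthest to the left.

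Marker genes of epithelium moved with some of these members more than with others. Over the 16 tissue means the epithelium list had r = 0.90 with DSP, 0.82 with CDH1, 0.79 with CLDN7, 0.71 with OCLN, 0.57 with CLDN4, 0.46 with CDH17, 0.32 with GJB1 and -0.71 with CLDN5. In each, points share animals and arrays, and the part of cell numbers in the results was not tested. The list was at 9.09 in stomach, 8.67 in thyroid gland, 8.66 in ileum, 7.69 in adenohypophysis and 6.95 in neurohypophysis, and at 4.28 to 5.02 in the other tissues except liver. In liver it was at 5.86, although CDH1, DSP and OCLN were within the range of the other epithelial organs there. EPCAM is both in this list and among the other junction genes described below.

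The epithelial organs were then set against each other. Liver against stomach, ileum and thyroid gland gave 6 probes higher, beside 7.12% of all probes, and 5 lower, beside 8.45%. CLDN14, a claudin known from the inner ear and kidney, had levels of 7.46, 7.71, 7.99 and 7.01 in liver (LW male, LW female, IB male, IB female), against 2.61 to 3.20 in the other 12 arrays. The groups did not overlap and the difference was 4.70 (SE 0.153, adjusted p = 3.3e-32). Stomach, ileum and thyroid gland lay there at the level of control probes that measure no pig gene, whose 95th percentile was 4.57, 4.40 and 4.39 in these tissues, so the difference is no exact ratio of RNA. Among all 16 tissues blood came next for CLDN14, at 4.24 ± 0.39, and no liver array was as low as any array outside liver.

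GJB1 was higher in liver by 2.39 (SE 0.203, adjusted p = 1.1e-14). CDH5, the VE-cadherin of endothelium, was higher by 1.36 and CLDN5 by 1.29 (SE 0.216, adjusted p = 1.4e-06), both of them genes of vessels. Of 7 genes in the endothelium list, 0 were called higher in liver, beside 7.12% of all probes, and 1 lower, beside 8.45%. Their median difference was 0.44. The list was at 6.39 in liver, 7.0 in thyroid gland, 6.42 in stomach and 5.99 in ileum. The part of vessels in these differences was not tested. CLDN7 fell by 3.20 (SE 0.320, adjusted p = 2.0e-12), GJA1, the most widespread connexin, by 2.17 (SE 0.201, adjusted p = 1.8e-13) and CDH17 by 2.02. CDH17 was high in ileum (10.16) and lower in thyroid gland than in liver. In liver neither CLDN7 nor CDH17 was above the 95th percentile of the control probes (4.72), so their differences are no exact ratios either. GJA1 did not overlap, with 6.19 to 7.25 in liver against 7.85 to 10.06 in the other epithelial organs. CDH11, a cadherin of mesenchymal cells, also fell without overlap, by 1.83.

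Thyroid gland against stomach, ileum and liver gave 7 probes higher, beside 8.39% of all probes, and 2 lower, beside 6.47%. CLDN10, a claudin that forms ion-selective pores, was at 9.71, 9.69, 9.62 and 9.95 in thyroid gland (LW male, LW female, IB male, IB female), against 4.52 to 6.98 in the other 12 arrays. It rose by 4.27 (SE 0.254, adjusted p = 2.3e-20), without overlap. GJB1 rose by 2.55, CLDN7 by 2.41 and GJA1 by 1.70 (adjusted p = 4.3e-10), all with overlap. CDH17 fell by 2.56 and CLDN14 fell by 1.62, where CDH17 was at 10.16 in ileum and CLDN14 at 7.54 in liver.

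Stomach and ileum, both lined by a simple epithelium, differed in 13 probes. Stomach had 8 higher, beside 5.92% of all probes, and 5 lower, beside 6.93%. CDH17 had levels of 4.87, 4.57, 4.86 and 6.71 in stomach and of 10.69, 10.31, 10.33 and 9.30 in ileum, in the order LW male, LW female, IB male, IB female. It was lower in stomach by 4.90 (SE 0.239, adjusted p = 1.3e-23). CLDN7 was at 4.71, 4.41, 5.01 and 8.11 in stomach and at 9.57, 8.98, 9.92 and 8.54 in ileum, lower by 3.69 (SE 0.391, adjusted p = 3.1e-11).

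In both genes the stomach of the IB female was the high one and its ileum the low one, though stomach and ileum did not overlap. Without that stomach array CLDN7 fell by 4.54 and CDH17 by 5.39, and 6 probes were higher in stomach in place of 8. CLDN4 was at 5.95 to 6.73 in stomach and 7.54 to 8.43 in ileum, lower by 1.74 (adjusted p = 4.7e-06), and a second CLDN3 probe was lower by 1.92 without overlap. OCLN was at 10.26 to 10.77 in stomach and 7.41 to 8.42 in ileum, higher by 2.47 (SE 0.196, adjusted p = 2.4e-15). GJB1 rose by 2.10, CTNNAL1 by 2.07, PKP4, a plakophilin of desmosomes and adherens junctions, by 1.19 and CDH1 by 1.08, each without overlap. CDH1 was among the calls lost without that array, at 0.99, and was also under the minimum without the IB female (0.85) or the IB male (0.99). Thus CLDN7, CLDN4 and, by its second probe only, CLDN3 were higher in ileum. CLDN11 was also lower in stomach (-1.29), a call lost without the IB female or the IB male. Occludin and PKP4 were higher in stomach, as was E-cadherin with the limits given above. The leukocyte list was at 6.04 in stomach and 8.50 in ileum, and its part in these differences was not tested.

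In the nervous tissues CLDN11, GJA1, CLDN10 and CDH13 were higher and CLDN7, DSP and CDH5 lower. Olfactory bulb and hypothalamus against the other 14 tissues gave 7 probes higher, beside 9.04% of all probes, and 5 lower, beside 5.62%, so that the count of higher probes was near that of the array. CLDN11 was at 11.27, 12.07 and 12.24 in the 8 arrays of the nervous tissues (lowest, median and highest) and at 2.87, 5.37 and 12.09 in the other 56. The difference was 5.22 (SE 0.205, adjusted p = 1.7e-28).

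The overlap of CLDN11 came from the adrenal samples. Cortex was at 11.88 ± 0.15 and medulla at 11.88 ± 0.19, beside 12.14 ± 0.08 in hypothalamus and 11.63 ± 0.41 in olfactory bulb. Neurohypophysis was at 10.24 ± 0.73, pineal gland at 10.02 ± 1.13 and adenohypophysis at 9.05 ± 0.48, and all other tissues at 6.17 or less. The myelin and glia list was at 5.37 in adrenal cortex and 5.39 in medulla, against 10.43 in hypothalamus and 9.59 in olfactory bulb. Its genes were not all low in the adrenal samples. GFAP was at 4.12 in adrenal cortex against 12.88 in hypothalamus, and MOBP at 3.20 against 12.08. MAG was at 6.13 against 8.67, and MBP at 8.04 against 8.09. Within the pineal gland, CLDN11 was at 11.31 in the LW male, whose array stood apart, and at 8.74, 10.56 and 9.49 in the others.

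CLDN10 shared this order in part. It was higher in the nervous tissues by 2.43 (SE 0.166, adjusted p = 1.7e-18), with olfactory bulb at 9.30 ± 0.46 and hypothalamus at 9.0 ± 0.41, and was at 9.98 ± 0.24 in adrenal cortex, 9.99 ± 0.28 in medulla and 9.74 ± 0.14 in thyroid gland. The ranges of these 5 tissues overlapped from one to the next. Every other tissue was at 6.88 or less on average, and the pineal gland reached that through the LW male alone, at 8.53 against 6.18 to 6.40. Over the rest of the adrenal profile, CDH11 was at 8.97 ± 0.19 in cortex and 8.89 ± 0.14 in medulla. CTNNB1 was at 11.62 ± 0.11 and 11.65 ± 0.10. In both genes these were the top pair of tissue means by the brightest probe only. The other probes of both genes had other tissues on top, for CDH11 pineal gland and then hypothalamus.

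GJA1, the gap junction protein of astrocytes and of many other cells, was at 10.96, 11.39 and 11.74 in the nervous tissues and at 2.82, 9.21 and 11.44 in the rest, higher by 2.68 (SE 0.132, adjusted p = 2.4e-24). The 4 hypothalamus arrays, at 11.59 to 11.74, were above every other array, and pineal gland followed at 11.20 ± 0.18. CDH13 rose by 2.20 (SE 0.230, adjusted p = 4.7e-12), CLDN5 by 1.5 and PKP4 by 1.13. For PKP4 hypothalamus (7.0 ± 0.31), pineal gland (6.68 ± 0.42) and olfactory bulb (6.41 ± 0.27) were on top and overlapped. CLDN7 fell by 1.97 (SE 0.209, adjusted p = 6.9e-12) and DSP fell by 1.77. CDH5 fell by 1.32 (SE 0.130, adjusted p = 6.7e-13) and CLDN4 fell by 1.09.

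**Figure D4:**
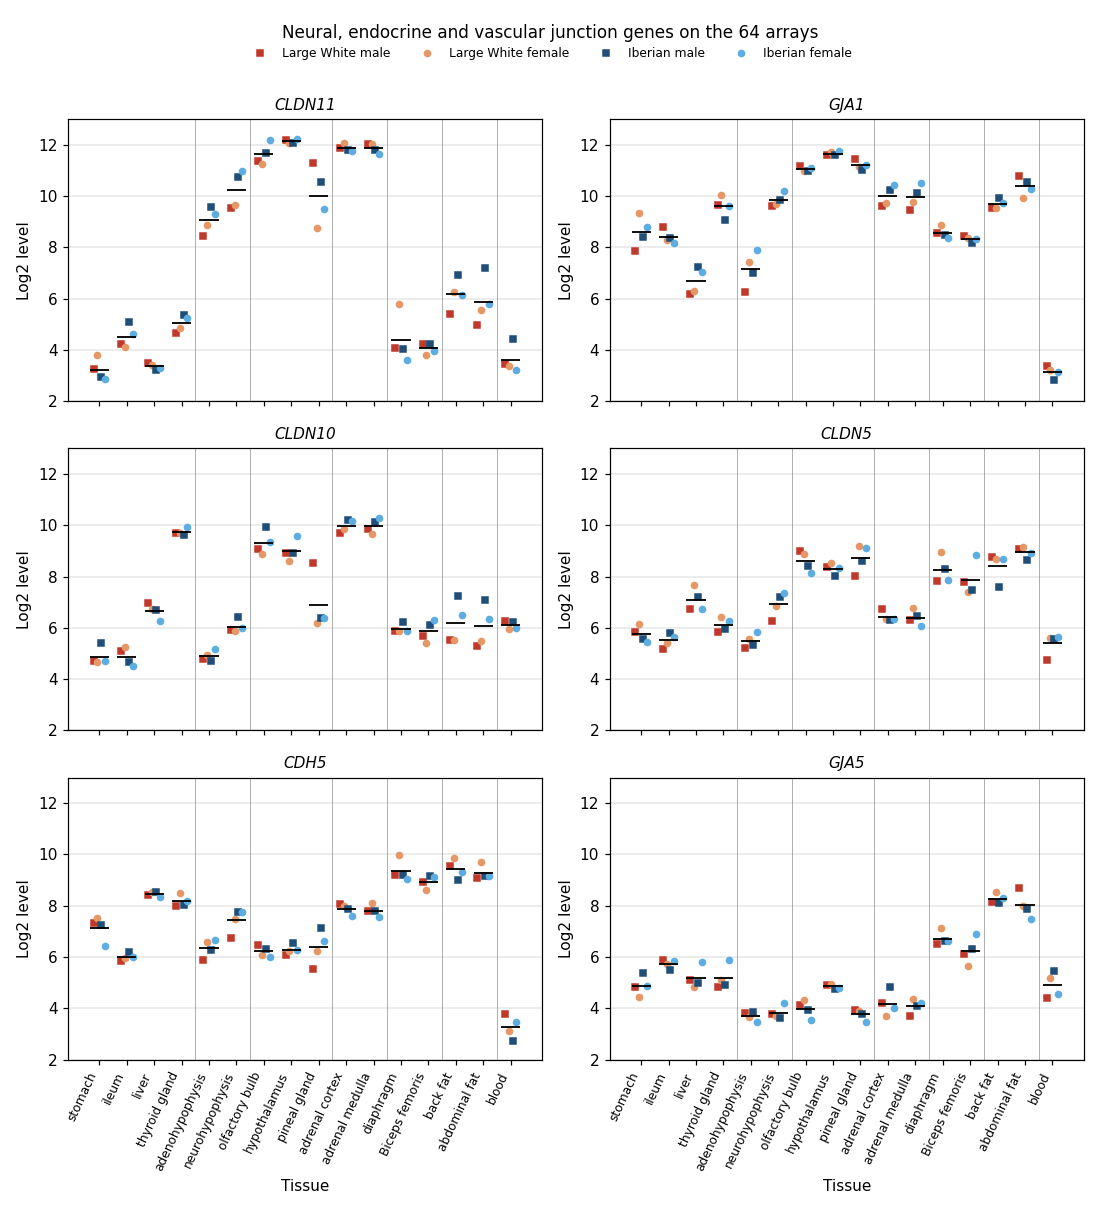
Log2 level of CLDN11, GJA1, CLDN10, CLDN5, CDH5 and GJA5 (brightest probe) on each of the 64 arrays by tissue, with the colours and symbols of breed and sex as in the plot of the epithelial genes and a black line for the mean of 4 arrays. CLDN11 was near 12 in hypothalamus, olfactory bulb and both adrenal samples, and GJA5 was at 7.49 to 8.71 in the fats against 7.13 or less elsewhere.

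The parts of the hypophysis differ in origin, the adenohypophysis being a gland of epithelial cells and the neurohypophysis an outgrowth of the brain. Adenohypophysis against neurohypophysis gave 2 probes higher, beside 2.82% of all probes, and 5 lower, beside 4.30%. CLDN7 was at 7.48, 7.18, 7.12 and 7.20 in adenohypophysis and at 6.24, 5.81, 5.56 and 4.94 in neurohypophysis (LW male, LW female, IB male, IB female), higher by 1.60 (SE 0.391, adjusted p = 0.0016). CDH1 rose by 1.06 (SE 0.295, adjusted p = 0.0064), also without overlap, but without the LW female the difference was 0.86 and was not called.

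GJA1 fell by 2.68 (SE 0.247, adjusted p = 1.2e-12), with 6.26 to 7.91 in adenohypophysis and 9.61 to 10.20 in neurohypophysis. CLDN5 fell by 1.43 (adjusted p = 3.3e-05), CLDN10 fell by 1.15 and CDH5 fell by 1.09 (adjusted p = 0.00054), each without overlap. CLDN11 fell by 1.18 (SE 0.384, adjusted p = 0.021), with overlap, and this call was lost without the IB male or the IB female. Without the IB male CLDN10 (-0.96) and CDH5 (-0.96) were not called either, which left 2 probes lower, whereas GJA1 and CLDN5 stayed called. Hormone genes were present on both sides, as given above, and their part was not tested. DSP was not called, at 7.05 ± 0.28 in adenohypophysis and 7.40 ± 0.08 in neurohypophysis.

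In muscle CDH13, CDH5 and GJA5 were higher and CLDN11 and CDH1 lower. Diaphragm and Biceps femoris against the other 14 tissues gave 6 probes higher, beside 6.79% of all probes, and 6 lower, beside 9.67%. CDH13 was at 8.53, 9.21 and 9.58 in the 8 muscle arrays and at 4.11, 5.80 and 9.53 in the other 56, higher by 2.85 (SE 0.230, adjusted p = 6.3e-16). CDH5 rose by 1.99 (SE 0.130, adjusted p = 2.1e-19) and GJA5, a connexin of arterial endothelium and heart, by 1.44 (SE 0.133, adjusted p = 7.3e-14). CLDN5 rose by 1.05 (SE 0.141, adjusted p = 4.4e-09), which was 0.90 without the Biceps femoris array of the IB female, 0.96 without that animal and 0.93 without blood, in each case under the minimum of 1 unit. CLDN7 passed by 1.0, with Biceps femoris at 6.53 ± 0.81, where the IB female was at 7.71 and the other 3 pigs at 5.90 to 6.36. Without that array CLDN7 was 0.82 higher and not called, and 4 probes were called higher in muscle and 7 lower. Without blood it was 0.95. CLDN11 fell by 3.54, CDH1 fell by 2.90 (SE 0.158, adjusted p = 1.3e-22) and DSP fell by 1.37.

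Back fat and abdominal fat against the other 14 tissues gave 10 probes higher, beside 6.33% of all probes, and 7 lower, beside 4.73%. GJA5 was at 8.16, 8.52, 8.11 and 8.30 in back fat and at 8.71, 7.98, 7.88 and 7.49 in abdominal fat (LW male, LW female, IB male, IB female). Every array outside fat was at 7.13 or less. The groups did not overlap, and the difference was 3.34 (SE 0.133, adjusted p = 6.1e-28). Next came diaphragm at 6.72 ± 0.28 and Biceps femoris at 6.24 ± 0.52.

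CDH13 rose in fat by 2.74 (SE 0.230, adjusted p = 4.5e-15), CDH5 by 2.24 (SE 0.130, adjusted p = 4.3e-21) and CTNNAL1 by 1.87 (SE 0.131, adjusted p = 6.4e-18). CLDN5 rose by 1.77, GJA4, another connexin of endothelium, by 1.60, and GJA1 and CTNNBIP1 by 1.16 each. Without blood GJA1 was 0.72 higher in fat, under the minimum. CDH1 fell by 2.19, DSP by 2.15 and CLDN11 by 1.48 (SE 0.205, adjusted p = 1.8e-08). CLDN10 differed by -1.03, a call lost without the pineal array of the LW male (-0.99), without that pig (-0.78) or without the LW female (-0.89). Among the members that rose, CDH5, CLDN5, GJA4 and GJA5 are known from endothelium.

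The endothelium list of 7 genes was also high there, at 7.54 in back fat, 7.51 in abdominal fat, 7.31 in diaphragm and 7.05 in Biceps femoris, against 5.69 to 7.0 in the other tissues. Of the list, 2 of 7 genes were called higher in fat, beside 6.33% of all probes, and 2 of 7 in muscle, beside 6.79%. Over the 16 tissue means it had r = 0.94 with GJA4, 0.78 with CDH5 (0.95 without blood), 0.76 with GJA5, 0.67 with CTNNAL1 and 0.24 with CLDN5. The fibroblast list was at 9.15 and 9.57 in the fats and at 8.28 and 8.24 in the muscles. The part of either cell type in these results was not tested.

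In blood GJA1, CDH5 and CDH11 were lower than in any solid tissue, and CLDN3, CDH24 and GJB5 higher. Blood against the 15 solid tissues gave 13 probes lower (24.5% of the members), beside 17.3% of all probes, and 7 higher (13.2%), beside 15.1%. GJA1 was at 3.38, 3.20, 2.82 and 3.13 in blood (LW male, LW female, IB male, IB female), against 6.19 to 11.74 in the 60 arrays of solid tissue. It was lower by 6.28 (SE 0.180, adjusted p = 2.5e-34). CDH5 was at 2.74 to 3.79 in blood against 5.52 to 9.97, lower by 4.39 (SE 0.178, adjusted p = 6.1e-28), and CDH11 at 2.87 to 3.89 against 4.90 to 9.24, lower by 4.0 (SE 0.238, adjusted p = 4.4e-21).

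CTNNAL1 fell by 2.71 and a second CTNNB1 probe fell by 1.42, and with GJA1, CDH5 and CDH11 they did not overlap with any solid tissue. CLDN11 differed by -3.94, DSP by -2.59, CDH13 by -2.06, CDH1 by -2.04, CLDN5 by -1.86 and OCLN by -1.63, with overlap, since each of them was as low or nearly as low in some solid tissue. CDH1, for instance, was at 5.61 ± 0.36 in blood and at 4.09 ± 0.39 in adrenal cortex. Both values lay under the 95th percentile of the control probes in these tissues, 5.96 and 4.64. The brightest CTNNB1 probe was at 10.10 ± 0.09 in blood, within the range of the solid tissues.

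The members higher in blood had modest levels there. CLDN3 rose by 1.52 (SE 0.104, adjusted p = 1.3e-18), CDH24, a cadherin of the type II group, by 1.49 (SE 0.110), GJB5, a connexin of skin, by 1.36 (SE 0.0924), CDH3, the P-cadherin of basal epithelium, by 1.30 (SE 0.101) and CLDN6, a claudin of embryonic epithelium, by 1.03 (0.91 without the LW female and 0.99 without the IB female, under the minimum). None of these 5 overlapped with a solid tissue. CLDN3 was at 6.67, 6.71, 6.70 and 6.83 in blood (LW male, LW female, IB male, IB female) and at 4.68 to 6.52 in the rest.

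The array also carries 64 reporter control probes, which measure no pig gene. Their levels were higher in blood too, by 0.50 at the median, and 12 of them (18.8%) by 1 unit or more. The 95th percentile of their levels was 4.64 over all arrays and, by tissue, lay between 4.34 and 5.96, with blood highest. Of the 18 member probes with a mean level at or under 4.64, 3 (16.7%) were called higher in blood and none lower. Among all 8279 probes at or under it, 21.2% were called higher and 153 probes lower. Of the 35 members above it, 4 (11.4%) were called higher and 13 lower. Among all 15656 probes above it, 11.8% were called higher and 3981 probes lower. CDH24 and CLDN6, at 4.70 and 4.59 in blood, were below the percentile of the reporters there, and GJB5, CDH3 and CLDN3, at 6.06, 6.28 and 6.73, were above it. GJA1, CDH5, CDH11, CTNNAL1, CLDN11 and DSP, at 3.13 to 3.74 on average in blood, were below it too. So were CDH1, CDH13 and CLDN5. The differences of all these genes are thus set against a level not above that of control probes. The part of background signal in these differences was not tested.

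**Figure D5:**
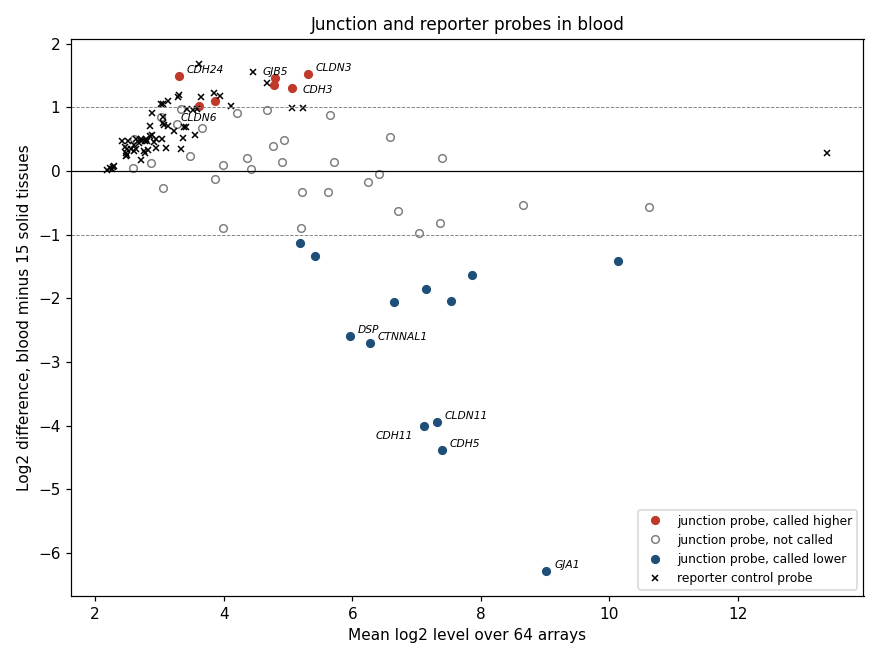
Log2 difference between blood and the mean of the 15 solid tissues (y axis) against the mean log2 level over the 64 arrays (x axis) for the 53 junction probes (circles, filled where called) and the 64 reporter control probes (crosses), with dashed lines at 1 unit. Junction probes called higher had differences of 1.03 to 1.52, and GJA1 lay lowest, at -6.28.

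The catenins and the genes named after them came next. CTNNB1, the beta-catenin of adherens junctions and of Wnt signalling, ranged between 9.73 ± 0.19 in pineal gland and 11.65 ± 0.10 in adrenal medulla with its brightest probe. CTNNBL1 ranged between 6.80 ± 0.19 in diaphragm and 7.97 ± 0.18 in ileum. CTNNAL1 was at 8.0 ± 0.48 in back fat, 7.83 ± 0.47 in abdominal fat and 7.22 ± 0.46 in stomach, and lowest in blood at 3.74 ± 0.17. CTNNBIP1 was at 7.36 ± 0.37 and 7.18 ± 0.44 in the fats. In the pineal gland of the LW male it was at 8.43, against 5.83 to 6.05 in the other pineal glands.

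Many members were near the level of the reporters, and so were many other probes of the array. The 95th percentile of the reporters over all arrays was 4.64. At or under it in mean level were 18 of the 53 member probes and 8279 of all 23935 probes. Of the 33 genes, 10 were above the 95th percentile of the reporters in all 16 tissues, 18 in some and 5 in none, namely CDH24, CDH6, CLDN6, CTNND1 and PCDH11X. TJP1, the scaffold protein of tight junctions, ranged only between 3.61 ± 0.20 in olfactory bulb and 4.62 ± 0.27 in back fat, and CTNND1, the catenin that stabilises cadherins at the membrane, between 3.19 ± 0.06 in hypothalamus and 3.99 ± 0.29 in stomach. CLDN12 was between 3.33 ± 0.09 in Biceps femoris and 4.61 ± 0.41 in liver. PCDH7, a protocadherin of brain and other tissues, was between 5.05 ± 0.17 in ileum and 6.49 ± 0.18 in blood.

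Genes with several probes give a check on these values. Over the 16 tissue means, 6 of the 20 other probes had r of 0.8 or more with the brightest probe of their gene, and 8 had r under 0.5, within a range of -0.05 to 0.99. OCLN (0.99), CDH5 (0.90), CDH1 (0.86) and CTNNBIP1 (0.86) had a second probe that followed the first. CLDN3 did not (0.19). Its brightest probe was flat, at 4.94 to 5.87 in the solid tissues, whereas the other was at 6.81 ± 0.61 in thyroid gland, 5.98 ± 0.47 in ileum and 5.60 ± 0.66 in liver and was called higher in the epithelial organs, by 1.66 (adjusted p = 3.5e-22). For CLDN3, an epithelial claudin, the call thus depended on the probe. The 4 other CTNNB1 probes had r of 0.29 to 0.64 with the brightest, and in muscle one of them fell by 1.61.

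An extreme probe of a tissue is one whose 4 arrays there lie all above, or all below, the other 60. Of the members, 12 (22.6%) were extreme and higher in some tissue, beside 20.6% of all probes, and 7 (13.2%) extreme and lower, beside 7.13%. Blood held 6 of the 12 (8.43% of all probes were extreme and higher in blood), namely CDH24, CDH3, CLDN3, CLDN6, GJB5 and a PCDH7 probe. It held 5 of the 7 (5.03% of all probes), namely CDH11, CDH5, CTNNAL1, GJA1 and a CTNNB1 probe. Outside blood, CDH1 was extreme in stomach, CDH17 in ileum, CLDN14 in liver, DSP in thyroid gland, GJA1 in hypothalamus and a CTNNB1 probe in neurohypophysis. The extremes on the low side outside blood were PKP4 in ileum, at 4.55 to 4.86, and a CTNNB1 probe in Biceps femoris.

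Genes most like CDH1 and CDH5 were looked for among all probes with 1 symbol, by Pearson's r over the 16 tissue means. For CDH1 they were MPZL2 and MPZL3 (0.91 each), BAIAP2L1 (0.89), KRT18 (0.86) and KRT8 (0.84), the last ones keratins of simple epithelium that are also in the epithelium list. For CDH5 they were EIF4EBP2 (0.96), SQSTM1, CNBP and DTWD1 (0.94 each) and RNF185 (0.93), none of which is a marker of vessels. Blood, where CDH5 was lowest at 3.28, is among these points, and the search was not repeated without it. With the endothelium list CDH5 had r = 0.78, and 0.95 without blood. CLDN3 and CLDN4 are adjacent in the RefSeq genes of the Sscrofa11.1 assembly. By their brightest probes they had r = 0.28 over the tissue means, and CDH1 and CDH3 had r = -0.08. For CLDN3 this is the probe that was flat in the solid tissues. Its other probe, which differed, was not set against CLDN4.

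Of 50 other junction genes listed, 15 had a probe. In the epithelial organs their median difference was 0.53, against -0.06 for the members and -0.03 for all probes. Of the 15, 4 were called higher there, beside 4.86% of all probes, and 1 lower, beside 4.30%. They were EPCAM (4.63), a cell surface protein of epithelium that associates with claudins, PERP (3.37) of desmosomes, MARVELD3 (2.17) and CXADR (1.29) of tight junctions, and JAM3 (-1.42), an adhesion molecule of endothelium and other cells. In liver EPCAM fell by 5.12 against the other epithelial organs. In thyroid gland 6 of 15 were higher, beside 8.39% of all probes, and 0 lower, beside 6.47%. In fat ESAM, an adhesion molecule of endothelium, rose by 1.44 and PPL by 1.69, and 4 fell. There 6.33% of all probes were higher and 4.73% lower. In the nervous tissues PRKCZ, a kinase of cell polarity, rose by 2.79 and JAM3 by 1.55, and 5 fell. There 9.04% of all probes were higher and 5.62% lower. In muscle 2 rose, beside 6.79% of all probes, and 5 fell, beside 9.67%. In blood 1 rose, beside 15.1% of all probes, and 5 fell, beside 17.3%.

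Breed differences of the members called were at most 0.53 units. With arrays as replicates, LW against IB gave 5 member probes higher, beside 6.15% of all probes, and 1 lower, beside 6.57%. DSP averaged 6.28 in the LW male and 6.17 in the LW female, against 5.87 in the IB male and 5.57 in the IB female, and was higher in LW in 15 of 16 tissues, by 0.51 (SE 0.118, adjusted p = 0.0019). Without the LW female or the IB female it was 0.41 and was not called. On the means of the 4 animals the adjusted p was 0.18.

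CTNNBIP1 was higher in LW by 0.28 (SE 0.0886, adjusted p = 0.027) and CLDN12 lower by 0.18 (SE 0.0596, adjusted p = 0.036), and both calls were lost when any 1 animal was left out. The CLDN12 call was also lost in limma without the pineal array of the LW male (-0.17, adjusted p = 0.054) and without blood (-0.18, adjusted p = 0.051). Of the 5 CTNNB1 probes, 2 of the dimmer ones were higher in LW, by 0.46 (adjusted p = 1.8e-07) and 0.53 (adjusted p = 6.0e-08), whereas the brightest was at 0.09 (adjusted p = 0.086). One of the pair averaged 7.59 in both LW pigs, against 7.16 in the IB male and 7.11 in the IB female, and was higher in LW in 15 of 16 tissues. The other was at 7.01 and 6.94 in the LW pigs, against 6.24 and 6.65 in the IB pigs, and higher in LW in all 16. The second CLDN3 probe rose by 0.32 (adjusted p = 0.0035). With the animal as a random block 3 probes were lower in place of 1.

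Taking the animal as the unit, no member was called between breeds (limma on 4 animal means), against 22 of all probes. At an unadjusted p under 0.05 there were 12 members (22.6%), beside 13.2% of all probes. With 2 pigs a breed, breed and single animals cannot be told apart by these calls. CLDN4 in fat is an example of a single animal, at 7.63 and 8.08 in back and abdominal fat of the LW female, against 6.20 and 6.95 in the LW male, 5.57 and 5.86 in the IB male and 5.95 and 5.77 in the IB female. It was chosen after its values were seen. The hepatocyte list was also highest in these 2 arrays among the fats of its kind. It was at 7.46 in back fat of the LW female, against 5.54 to 6.44 in the other pigs. In her abdominal fat it was at 9.35, against 5.40 to 5.95. The part of liver RNA in these CLDN4 values was not tested.

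No member was called between the sexes. Male against female called 0 members (limma over arrays), beside 0.673% of all probes higher and 0.781% lower. At an unadjusted p under 0.05 there were 6 of 53 members (11.3%), beside 9.39% of all probes, and on animal means 0 were called and 5 (9.43%) had an unadjusted p under 0.05, beside 3.64% of all probes. The breed difference was not called as varying among tissues for any member (0 by limma's F test of the interaction, beside 2.08% of all probes), with 13 members (24.5%) at an unadjusted p under 0.05, beside 16.5%.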

How the data were processed

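The authors read the arrays with GCOS, checked their quality and deposited log2 values made by RMA (libaffy), 1 column for each of 64 arrays. RMA draws the arrays onto 1 distribution, so a shift shared by all probes of a tissue would not show. No version of either tool was found in the sources read. The methods take a further logarithm after RMA, and this was run as an alternative on the natural log scale. All 24123 probe sets were read, 188 control sets were left out of the tests and 0 columns had no sample. Genes were named from the platform annotation, in which 10069 probes have 1 symbol, 198 several and 13668 none. All 53 member probes matched RefSeq by Entrez number with 0 changed symbols.

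Each probe was fitted with limma 3.58.1 (R 4.3.3) on tissue, breed and sex, with Benjamini-Hochberg adjustment over 23935 probes and a minimum difference of 1 log2 unit between tissues. Arrays of 1 animal enter as replicates, so p-values for breed and sex are too small for 2 animals against 2. Limma was therefore also run on the 4 animal means. Tissues of 1 animal come from the same pig by design. Deviations from tissue means correlated at 0.189 on average within animals (480 pairs of arrays, 385 over 0.1) and at -0.0629 between animals (1440 pairs, 40 over 0.1). In simulated data for the epithelial contrast, 99% of probes shifted by 1.5 and by 3 log2 units were recovered among 23935, with 0 false calls. Simulated probes had the same mean in all tissues before the shift and independent errors. Tissue differences and the likeness within animals were left out, so the rate of false calls in the real data was not measured.

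A gene is represented by its brightest probe. Values are given for 20 preset junction genes, of which 14 have a probe, and in each comparison for the 4 called genes with the highest and the 3 with the lowest difference. Members and lists were chosen with earlier results of these data known. Marker lists (genes with a probe of those listed) covered epithelium (10 of 12), endothelium (7 of 10), fibroblast (6 of 8), neuron (6 of 7), myelin and glia (4 of 7), leukocyte (6 of 6), red cell and platelet (3 of 4), skeletal muscle (4 of 4), hepatocyte (4 of 4), thyrocyte (2 of 4), gastric (5 of 6), enterocyte (4 of 5), adrenal cortex (3 of 3), chromaffin (1 of 3), pituitary (5 of 5), pineal (1 of 4) and adipocyte (2 of 3) genes. The comparison with reporter probes and the fits without the stomach or Biceps femoris array of the IB female were chosen after seeing the data. Other alternatives were 1 probe per gene, brighter probes only, median centring, no minimum difference, the animal as a replicate block, and leaving out the pineal array of the LW male, blood or each animal. Python 3.11.15, numpy 2.4.6, pandas 2.3.3 and matplotlib 3.10.9 were used.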

Additional observations from a re-analysis of the deposited data

Results flagged for a closer look

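Of 416 sets of 4 arrays (26 genes by 16 tissues), 23 had an array whose gap to the nearest of the others exceeded the 95% critical share of the range (Dixon's test), where chance gives about 1 in 20. The array was that of the IB female in 8, the IB male in 6, the LW male in 6 and the LW female in 3, and in 9 sets the gap was 1 unit or more.

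In the stomach of the IB female CLDN7 was at 8.11 (others 4.41 to 5.01) and CDH17 at 6.71 (4.57 to 4.87), both genes being high in ileum. The enterocyte list was at 4.57 there, against 3.40 to 4.03, and the thyrocyte list at 6.62, against 5.14 to 5.61. The thyrocyte list holds only TG and SLC5A5. Over the stomachs TG averaged 3.48, under the 95th percentile of the reporters there (4.57), and SLC5A5 averaged 7.80. In the pineal gland of the LW male CLDN10 was at 8.53 (6.18 to 6.40) and CTNNBIP1 at 8.43 (5.83 to 6.05). The myelin and glia list was at 9.80 there (6.45 to 6.94). In Biceps femoris of the IB female CDH11 was at 4.90 (6.60 to 6.70). The part of other cell types in these values was not tested.

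In fat, CDH1 was at 4.78 in abdominal fat of the LW male (5.99 to 6.01), DSP at 3.14 in abdominal fat of the IB female (4.66 to 4.74) and CLDN5 at 7.58 in back fat of the IB male (8.69 to 8.76). Abdominal fat of the LW female had CDH5 at 9.72 (9.10 to 9.16) and OCLN at 7.99 (7.12 to 7.22). The hepatocyte list was at 9.35 in that array (5.40 to 5.95), and its part was not tested. Back fat of the IB female had GJB1 at 4.01 (3.68 to 3.73). In diaphragm CDH5 was at 9.97 in the LW female (9.05 to 9.19) and CLDN10 at 6.23 in the IB male (5.86 to 5.89).

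In liver, CLDN4 was at 7.74 in the IB male (8.98 to 9.20), CTNNBIP1 at 6.10 in the IB female (6.43 to 6.49) and DSP at 9.13 in the LW male (8.62 to 8.67). CDH13 was at 6.93 in the thyroid gland of the IB female (5.81 to 5.98) and CLDN10 at 5.40 in the stomach of the IB male (4.65 to 4.71). In blood of the LW male CLDN5 was at 4.76 (5.58 to 5.64), and in the adrenal cortex of that pig at 6.75 (6.29 to 6.36). The remaining sets were CDH17 at 4.29 in hypothalamus of the IB female (4.08 to 4.11), CTNNBIP1 at 6.07 in olfactory bulb of the IB male (6.45 to 6.51) and PKP4 at 5.80 in adenohypophysis of the IB male (5.62 to 5.64).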

How the results depend on the processing

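Of 348 repeated counts, 294 stayed within 1.5 times the main count and 54 did not. For the 63 named genes and comparisons, 770 of 793 repeats kept the call, 23 lost it and 0 turned direction. With no minimum difference, members higher and lower were 17 and 21 in the epithelial organs, 17 and 27 in the nervous tissues, 18 and 21 in muscle, 17 and 20 in fat, 20 and 20 in blood, 14 and 12 in liver, 19 and 9 in thyroid gland and 10 and 8 in adenohypophysis, and 15 were higher in stomach than ileum. With brighter probes only, fewer probes were tested, and 23 differed among tissues, 4 were higher in the epithelial organs, 3 lower in the nervous tissues, 3 higher in muscle, 4 lower in fat, 0 higher in blood, 3 higher and 3 lower in liver, 4 and 0 in thyroid gland, 5 and 2 in stomach against ileum, 1 higher in adenohypophysis and 4 extreme and higher. The share of all probes is not given under these settings, so the counts cannot be set beside the array. With 1 probe per gene, 30 differed among tissues and 2 were higher in LW than IB. On the natural log scale 1 was higher in adenohypophysis. Between breeds, 3 were lower in LW with the animal as a random replicate block, 2 without the pineal array of the LW male and 0 without blood, and on animal means 0 were higher and 0 lower. As a fixed replicate block the animal moved no count of tissue calls beyond 1.5 times. Extreme probes were 6 higher and 3 lower without blood, and 3 and 4 with a gap over 0.5 units. Without the pineal array of the LW male 6 members were lower in fat in place of 7, where CLDN10 was at -0.99. Leaving out each animal gave 2 to 4 higher and 0 lower in LW, 0 to 1 lower in males, and 1 to 2 higher and 2 to 5 lower in adenohypophysis. The cause of these changes was not tested, other than the smaller number of probes or arrays. Having 4 arrays a tissue and 2 animals a breed limits the precision.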
